A study of Mus musculus with 24 samples.

Results

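The sine oculis homeobox genes Six2, Six3, Six4 and Six6 and the EYA genes Eya1, Eya2, Eya3 and Eya4 were followed through the 4 conditions of a calibrated RNA-seq (cRNA-seq) experiment in mouse embryonic stem cells (ESCs). They were chosen by name, with the most read row kept for each symbol, and are 8 of the 19409 gene symbols on 20633 transcripts. Sine oculis proteins bind DNA through a homeodomain and a conserved domain beside it. EYA proteins have no DNA-binding domain of their own, are recruited by sine oculis proteins as coactivators and also carry a phosphatase domain. With PAX and DACH factors they form a network best known from the eye, ear, kidney and muscle of the embryo, and several of these genes are classical Polycomb targets in ESCs.

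Both ESC lines derive from E14 cells, were grown on gelatin with serum and leukemia inhibitory factor, and carry Rosa26::ERT2-Cre, so that 4-hydroxytamoxifen (OHT) activates the recombinase. PRC1CKO cells (clone B9) are Ring1a-/- and Ring1b fl/fl in every condition, and OHT removes RING1B and with it PRC1. PRC1CPM cells (clone 41) carry Ring1a I50A/D53K throughout and a Ring1b allele, written Ring1b(WT->I53A/D56K)fl/fl, that OHT switches from wild type to a catalytically inactive form. Cells of each line were left untreated or kept in 800 nM OHT for 72 h, with 3 replicates per condition and 12 libraries in all, of 14668159 to 27016156 reads on genes. No line without the Cre was treated with OHT, and each line is 1 clone, so effects of the line and of the clone cannot be told apart. Untreated PRC1CKO cells already lack RING1A, and untreated PRC1CPM cells already carry inactive RING1A.

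The promoters of 4 sine oculis genes are shown because Six3 and Six2, which lie next to each other, changed together, while Six6 and Six4 on another chromosome did not. The windows run from 250 bases before to 50 bases after the RefSeq start site on GRCm38.p6, 5′ to 3′ along the gene, with CpG dinucleotides in capitals. They are chr17:85620584-85620883 on the plus strand for Six3, chr17:85688205-85688504 on the minus strand for Six2, chr12:72939632-72939931 on the plus strand for Six6 and chr12:73113196-73113495 on the minus strand for Six4.
Six3: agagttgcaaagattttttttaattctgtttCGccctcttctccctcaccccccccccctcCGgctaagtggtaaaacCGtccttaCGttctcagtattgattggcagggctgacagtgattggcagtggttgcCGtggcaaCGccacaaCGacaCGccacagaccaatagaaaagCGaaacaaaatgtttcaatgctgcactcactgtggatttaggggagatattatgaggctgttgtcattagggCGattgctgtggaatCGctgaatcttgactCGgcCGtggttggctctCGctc
Six2: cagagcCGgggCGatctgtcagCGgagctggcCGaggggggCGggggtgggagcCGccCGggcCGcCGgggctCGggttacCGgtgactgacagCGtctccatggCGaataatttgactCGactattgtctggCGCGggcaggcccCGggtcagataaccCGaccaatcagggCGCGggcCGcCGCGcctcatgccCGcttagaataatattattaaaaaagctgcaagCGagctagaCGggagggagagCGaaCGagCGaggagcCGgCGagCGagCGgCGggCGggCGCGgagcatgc
Six6: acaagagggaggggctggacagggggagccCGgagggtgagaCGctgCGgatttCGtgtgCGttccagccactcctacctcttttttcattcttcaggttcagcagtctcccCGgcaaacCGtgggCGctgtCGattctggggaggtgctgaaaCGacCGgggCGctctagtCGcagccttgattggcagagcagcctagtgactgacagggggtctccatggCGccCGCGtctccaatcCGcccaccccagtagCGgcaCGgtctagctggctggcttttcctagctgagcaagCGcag
Six4: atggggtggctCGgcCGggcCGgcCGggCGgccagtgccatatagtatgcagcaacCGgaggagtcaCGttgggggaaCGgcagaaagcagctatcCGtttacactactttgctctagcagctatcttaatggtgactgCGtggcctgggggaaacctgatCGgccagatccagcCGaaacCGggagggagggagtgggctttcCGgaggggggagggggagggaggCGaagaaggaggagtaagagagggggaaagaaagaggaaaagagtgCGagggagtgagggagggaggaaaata

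The Six2 window holds 37 CpG dinucleotides, the Six6 window 20, the Six4 window 16 and the Six3 window 14, against a median of 7 over 32851 RefSeq promoters of the same length. Windows were found for 6 of the 8 genes, and those of Eya4 and Eya3 hold 28 and 25. The CpG count therefore did not separate the genes that rose from those that did not. Six3, which was called higher in both lines, had the lowest count of the 6 and Eya3, which was not called, had a higher one than Six3. The letters TCAGGTTTC, the MEF3 element that sine oculis proteins bind in muscle genes, were searched on both strands. They occur in the window of Six4 and in those of none of the other 5, and in 0.429% of all the promoters.

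The targeted genes gave no check of the labels, because reads were counted over whole gene bodies and not over the deleted or switched exons. Ring1, which encodes RING1A, was covered by 196 to 311 reads in the PRC1CKO libraries and by 92 to 193 in the PRC1CPM libraries, with no call after OHT (0.20 and -0.20, adjusted p = 0.750 and 0.816, limma). Rnf2, which encodes RING1B, had between 1164 and 1866 reads in every library, and its log2 fold change after OHT was 0.027 in PRC1CKO and -0.17 in PRC1CPM cells (adjusted p = 0.963 and 0.763, limma).

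In PRC1CKO cells, OHT raised Six3, Six2, Eya4 and Eya2, and left Six4, Six6, Eya1 and Eya3 without a call. The same 4 genes rose in PRC1CPM cells. Each line thus had 4 of the 8 genes higher and 0 lower, where a call needs a Benjamini-Hochberg adjusted p under 0.05 over all 16940 transcripts tested and a fold change above 1.5. Of all transcripts tested, 16.5% were called higher and 3.09% lower in PRC1CKO cells, and 13.1% and 1.4% in PRC1CPM cells. Among the 8 genes, the median log2 fold change was 1.00 in PRC1CKO and 0.86 in PRC1CPM cells, against 0.12 and 0.10 over all transcripts tested. These values are on the spike-in scale, which sets each library against the Drosophila cells mixed in before extraction. With TMM scaling on the mouse genes the median of all transcripts moved to -0.0019 and -0.0072. The split of all calls then moved from 2787 higher and 524 lower to 2845 and 1133 in PRC1CKO cells, and from 2226 and 237 to 2396 and 595 in PRC1CPM cells. The calls of the 8 genes were the same 4 under TMM. In bulk RNA, more cells that transcribe a gene and more RNA from each cell cannot be told apart.

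**Figure D1:**
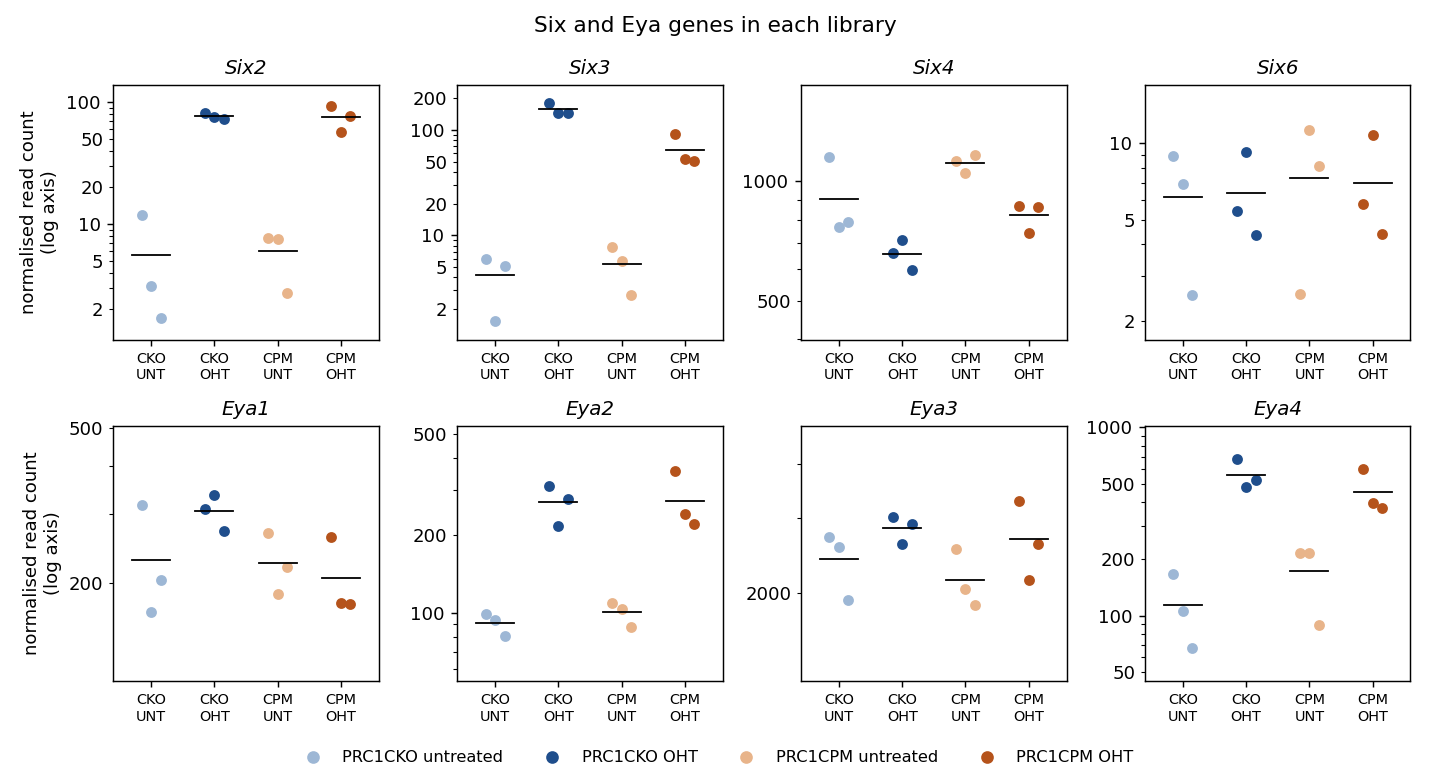
Normalised read count (log axis) of each gene in the 12 libraries, with a point for each library and a bar at the mean of the 3 replicates. Six2, Six3, Eya2 and Eya4 lie higher in every OHT-treated library than in any untreated library of the same line, from 1.69 to 11.9 in untreated and 73.3 to 81.4 in OHT-treated PRC1CKO cells for Six2.

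Six3, a homeobox factor needed for the forebrain and the eye, showed the largest change of the 8 genes in PRC1CKO cells. Its normalised read count was 5.96, 1.54 and 5.07 in untreated replicates 1, 2 and 3 of PRC1CKO and 178, 146 and 145 after OHT. In PRC1CPM cells it was 7.67, 5.65 and 2.71 untreated and 90.7, 52.6 and 50.4 after OHT. Six3 was nearly silent in all 6 untreated libraries, and treated and untreated libraries did not overlap in either line. The untreated values rest on 2 to 6 reads per library, so the folds carry wide intervals. The fitted fold change was 33.0 in PRC1CKO (95% interval 16.6 to 65.3, adjusted p = 7.65e-12, limma) and 10.6 in PRC1CPM cells (5.33 to 20.9, adjusted p = 5.14e-07). On the log2(normalised read count + 1) scale used for all fold changes here, these are 5.04 ± 0.49 and 3.40 ± 0.49 (standard error).

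Six2, which keeps nephron progenitors of the kidney from differentiating, rose to nearly the same level in both lines. It was read at 11.9, 3.08 and 1.69 in untreated and at 81.4, 75.9 and 73.3 in OHT-treated PRC1CKO libraries. The PRC1CPM libraries gave 7.67, 7.54 and 2.71 untreated and 92.7, 57.2 and 76.7 after OHT. No treated library came near an untreated one, and the treated ranges of the lines overlapped. The log2 fold change was 3.90 ± 0.52 in PRC1CKO (adjusted p = 3.29e-08, limma) and 3.53 ± 0.52 in PRC1CPM cells (adjusted p = 7.74e-07). The untreated level rests on 2 to 8 reads per library, and without untreated replicate 1 the PRC1CKO value was 4.55.

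Six4, a homeobox factor of muscle and kidney precursors, was the sine oculis gene of these 4 that untreated ESCs transcribed at a clear level. It stood at 1149.95, 769.6 and 789.8 in untreated and 660.8, 713 and 599 in OHT-treated PRC1CKO libraries. In PRC1CPM cells it stood at 1126, 1049.8 and 1167 untreated and at 865, 741.5 and 864 after OHT. Treated libraries were below untreated ones of the same line without overlap in both lines, the opposite order to Six2 and Six3. The log2 fold change was -0.44 ± 0.23 in each line (95% interval -0.89 to 0.022 in PRC1CKO and -0.90 to 0.019 in PRC1CPM cells), and neither passed the test (adjusted p = 0.208 and 0.249, limma). With TMM scaling the values were -0.55 in both lines with adjusted p of 0.00275 and 0.00449, still under the fold threshold of 1.5.

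Six6, the factor closest to Six3 in the family and a regulator of retina and pituitary, was at the limit of detection in every condition. Its normalised read counts were 8.94, 6.93 and 2.54 in untreated and 5.42, 9.26 and 4.36 in OHT-treated PRC1CKO libraries. They were 2.56, 11.3 and 8.13 in untreated and 5.79, 10.8 and 4.38 in OHT-treated PRC1CPM libraries. All 12 libraries held between 2 and 14 reads, and the conditions overlapped throughout. The log2 fold change was 0.11 ± 0.68 in PRC1CKO and 0.037 ± 0.68 in PRC1CPM cells (adjusted p = 0.950 and 0.988, limma). The 95% intervals reach from -1.24 to 1.47 and from -1.32 to 1.39, so a change of 2 log2 units was outside them and a change of 1 was not. The sign in PRC1CPM cells turned with TMM scaling and with the count tests.

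Eya4, mutated in a form of inherited hearing loss and heart muscle disease, changed most among the EYA genes of PRC1CKO cells. It was read at 167, 105 and 67.6 in untreated and 676, 480.4 and 527 in OHT-treated PRC1CKO libraries. PRC1CPM libraries gave 215, 214 and 89.5 untreated and 600.4, 395 and 372 after OHT. The treated libraries were all above the untreated ones of their line. The fitted fold change was 5.20 in PRC1CKO (95% interval 3.35 to 8.06, adjusted p = 2.75e-08, limma) and 2.77 in PRC1CPM cells (1.79 to 4.29, adjusted p = 0.000421). With limma treat, which tests for a change beyond 1.5-fold, the call in PRC1CPM cells was lost for Eya4 and for Eya2.

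Eya2, a coactivator found in muscle and placodes, was evenly transcribed at a low level before treatment. The values were 98.3, 93.9 and 81.2 in untreated and 313, 218 and 277 in OHT-treated PRC1CKO libraries. In PRC1CPM cells they were 109, 104 and 88.1 untreated and 356, 243 and 221 after OHT. Neither line had any overlap between treated and untreated libraries. The log2 fold change was 1.54 ± 0.30 in PRC1CKO (adjusted p = 6.00e-05, limma) and 1.41 ± 0.30 in PRC1CPM cells (adjusted p = 0.000344). The table holds 2 further Eya2 rows with a later start site, which share most of their reads with this row. They gave 1.65 and 1.596 in PRC1CKO and 1.54 and 1.55 in PRC1CPM cells, and were called higher in both.

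Eya1, whose loss causes branchial arch, ear and kidney defects, was not called in either line. Its values were 317, 168 and 203 in untreated and 310.1, 337 and 272 in OHT-treated PRC1CKO libraries. In PRC1CPM libraries they were 268.5, 187 and 219.6 untreated and 263, 178 and 176 after OHT. Treated and untreated libraries overlapped in both lines, in PRC1CKO cells because untreated replicate 1 was as high as the treated libraries. The log2 fold change was 0.46 (95% interval -0.11 to 1.04, adjusted p = 0.316, limma) in PRC1CKO and -0.14 (-0.72 to 0.44, adjusted p = 0.887) in PRC1CPM cells. Without that untreated replicate the PRC1CKO value was 0.72, with an adjusted p of 0.0573.

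Eya3, the EYA gene found most widely across tissues, was the most read of the 8 in every library. It had 2709.5, 2566 and 1926 normalised reads in untreated and 3008, 2611 and 2905 in OHT-treated PRC1CKO libraries. The PRC1CPM libraries had 2542, 2040.3 and 1872 untreated and 3277, 2142 and 2608 after OHT. The ranges overlapped in both lines. Its log2 fold change was 0.26 (95% interval -0.17 to 0.68) in PRC1CKO and 0.31 (-0.12 to 0.73) in PRC1CPM cells, with adjusted p of 0.500 and 0.467 (limma).

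**Figure D2:**
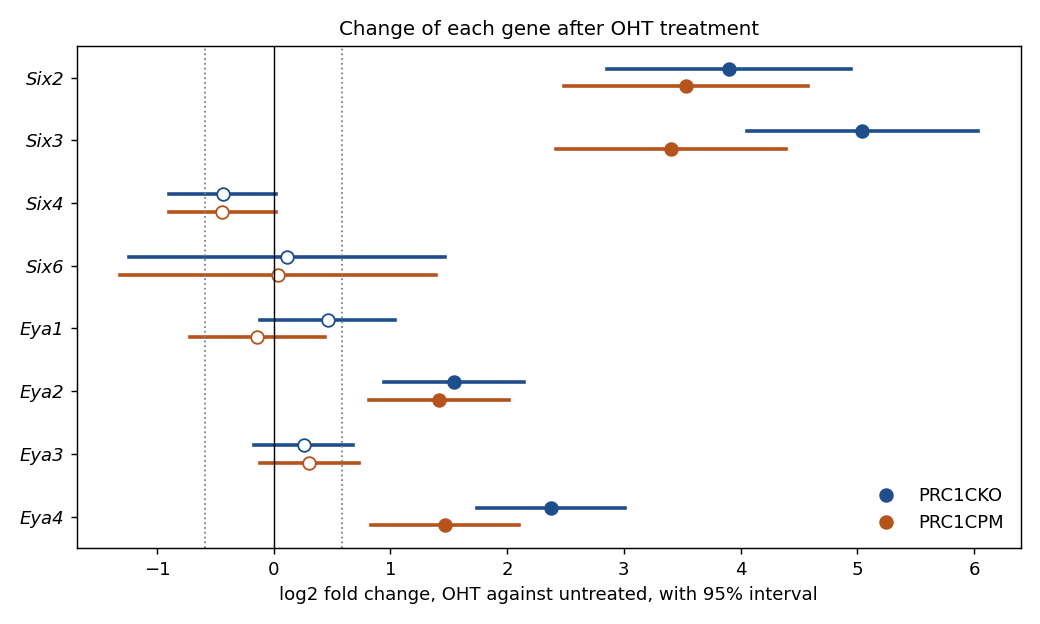
Log2 fold change after OHT (horizontal axis) of each gene in PRC1CKO and PRC1CPM cells with its 95% interval from limma, filled where called and open where not, with dotted lines at a change of 1.5-fold either way. The 4 called genes lie between 1.41 and 5.04, and the intervals of the other 4 include 0 in both lines.

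Whether the loss of PRC1 and the loss of its catalytic activity differed for these genes was asked in 2 ways, by the difference between the lines' changes (the interaction) and by the treated lines directly. None of the 8 genes was called by the interaction, for which 0.0236% of all transcripts were. The adjusted p was 0.9999 for each of the 8, and the unadjusted p was under 0.05 for 2. These were Six3, whose change was smaller in PRC1CPM cells by 1.64 log2 units (95% interval of the difference -3.04 to -0.25, unadjusted p = 0.0220, limma), and Eya4 (-0.91, -1.80 to -0.015, unadjusted p = 0.0465, limma). The edgeR and DESeq2 fits called none of them either, whereas limma with the replicate number as a block called Eya4 (adjusted p = 0.0287) and 1.91% of all transcripts. For Six2 the difference of the changes was -0.37 with an interval from -1.85 to 1.11, and for Eya2 -0.13 with an interval from -0.98 to 0.72. Differences within those intervals remain compatible with these data.

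Between OHT-treated lines, 0 of the 8 genes were called, against 1.47% of all transcripts (212 higher and 37 lower in PRC1CPM, or 524 and 261 with TMM). The split of all transcripts was 82 and 46 without OHT-treated PRC1CPM replicate 1, and 399 and 78 without untreated PRC1CKO replicate 1. Six3 was lower in PRC1CPM than in PRC1CKO cells, 64.6 ± 22.7 against 156 ± 18.8 (SD, n = 3), with no overlap of the libraries. The difference of -1.31 log2 units (95% interval -2.30 to -0.32) had an unadjusted p of 0.0103 and an adjusted p of 0.212 with limma. It was called by DESeq2 (-1.28, adjusted p = 0.0182) and with TMM (-1.41, adjusted p = 0.0373) or median-of-ratios scaling. Over all transcripts, DESeq2 called 345 higher and 85 lower, and the fit with median-of-ratios scaling 517 and 257. Eya1 was also lower, 206 ± 49.3 against 306 ± 32.5 (SD, n = 3), by 0.59 log2 units with an adjusted p of 0.429 (limma), and was called with TMM (-0.70, adjusted p = 0.0124) and median-of-ratios scaling. With the replicate block in limma, Six3 and Eya1 were both called (adjusted p = 0.0162 and 0.0156), against 8.05% of all transcripts. Six4 differed in the other direction, at 824 ± 71.1 in PRC1CPM against 658 ± 56.8 in PRC1CKO cells (SD, n = 3), and was not called (0.32, adjusted p = 0.714, limma). The treated libraries of the lines did not overlap for Eya1 and Six4 either. The share of all transcripts without overlap was not counted, so the lack of overlap is given as a description only. Treated Six2 and Eya2 differed between the lines by -0.050 (interval -1.09 to 0.99) and 0.0061 (-0.59 to 0.61).

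Untreated lines also had 0 of the 8 genes called, against 2.69% of all transcripts (374 higher and 81 lower in PRC1CPM, or 745 and 305 with TMM). That split depended on single libraries. It was 1491 and 78 without untreated PRC1CKO replicate 1, and 170 and 74 without untreated PRC1CKO replicate 3. None of the 8 genes had an unadjusted p under 0.05 with limma. The libraries of the lines overlapped for all 8, and the share of all transcripts with such overlap was not counted. The largest difference was that of Eya4, 0.59 log2 units higher in PRC1CPM cells with an adjusted p of 0.405. With the replicate block it was called (adjusted p = 0.0106, limma), against 11.1% of all transcripts.

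Levels of different genes were compared per kilobase, which matters here because EYA genes are 85.7 to 246 kb long and sine oculis genes 3.99 to 12.99 kb. Per kilobase of gene body, Six4 stood first in all 4 conditions, at 69.5 ± 16.5 (SD, n = 3) in untreated PRC1CKO cells, and Eya3 followed at 28.0 ± 4.86. The other 6 genes lay between 0.461 and 1.62 in untreated PRC1CKO cells, and each overlapped the next in that order. After OHT in PRC1CKO cells, Six3 reached 29.2 ± 3.51 and Six2 19.3 ± 1.03, so that the libraries of Six3 overlapped those of Eya3 at 33.1 ± 2.40. In OHT-treated PRC1CPM cells Six2, at 18.9 ± 4.45, came before Six3, at 12.1 ± 4.23, and their libraries overlapped. Eya4, Eya1, Eya2 and Six6 lay between 1.28 and 2.28 after OHT in PRC1CKO cells, with Eya4 up from 0.461 and Eya2 from 0.516. Exons make up 1.39% to 6.07% of the EYA gene bodies and 45.6% to 80.1% of those of the sine oculis genes, so the order between the families depends on which length is used. Per kilobase of exon Eya3 stood first in every condition, at 462 ± 80.2 in untreated PRC1CKO cells against 145 ± 34.4 for Six4.

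The make-up of the sine oculis set therefore changed with OHT. Of the summed reads per kilobase of Six2, Six3, Six4 and Six6, Six4 held 95.6% ± 1.67 in untreated and 50.4% ± 2.57 in OHT-treated PRC1CKO cells (SD, n = 3). It held 95.5% ± 1.52 and 66.5% ± 4.15 in PRC1CPM cells. The share of Six3 went from 1.05% ± 0.534 to 29.1% ± 2.50 in PRC1CKO and from 1.12% ± 0.526 to 12.4% ± 3.00 in PRC1CPM cells, while Six2 held 19.2% and 19.6% after OHT. Per kilobase of exon the shares of Six4 were 96.7% and 56.7% in PRC1CKO and 96.7% and 70.9% in PRC1CPM cells. Among the EYA genes, Eya3 held 91.5% ± 1.64 before and 84.7% ± 0.920 after OHT in PRC1CKO cells and 89.8% ± 0.245 and 86.6% ± 1.56 in PRC1CPM cells. The treated and untreated shares of Six2, Six3, Six4, Eya2, Eya3 and Eya4 did not overlap in either line, which gives a two-sided exact permutation p of 0.1, the smallest that 3 against 3 libraries allow.

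**Figure D3:**
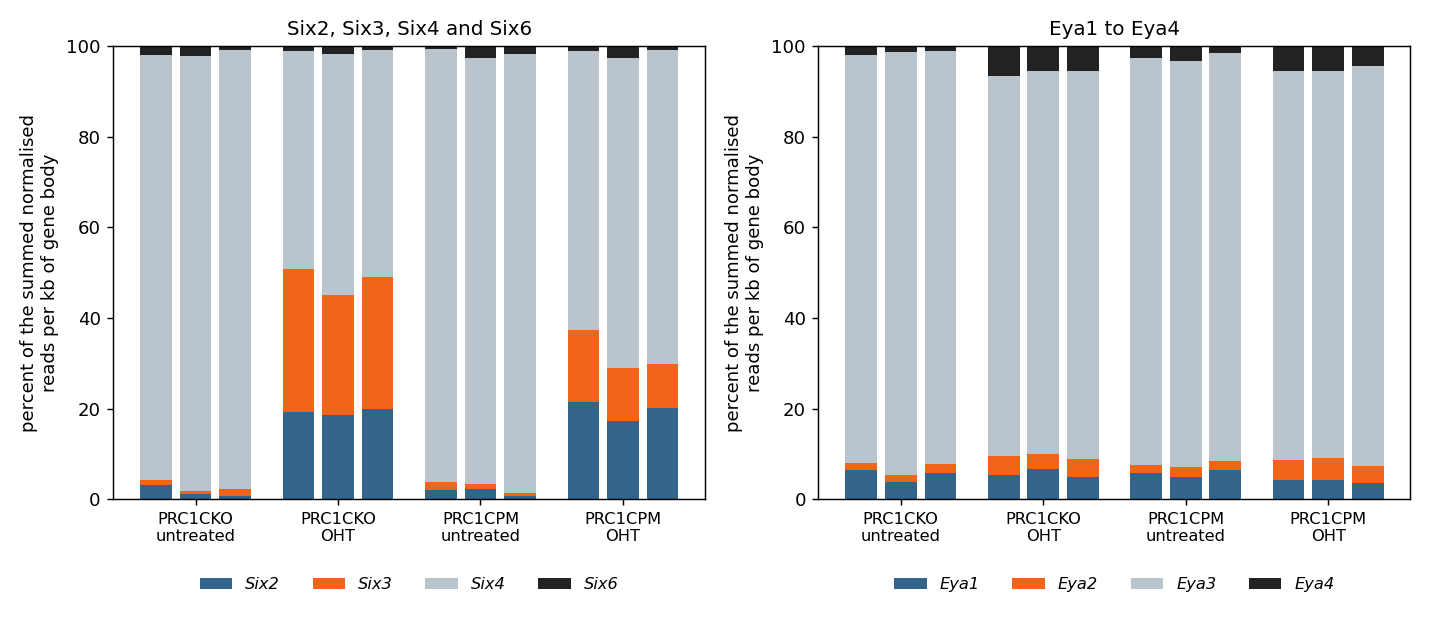
Share of each gene in the summed normalised reads per kilobase of gene body (percent, vertical axis) of the 4 sine oculis genes and of the 4 EYA genes, with a bar for each library. Six4 fills 93.7% to 97.0% of the sine oculis bars of untreated PRC1CKO cells and 48.2% to 53.2% after OHT, and Eya3 the largest part of every EYA bar.

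Six3 and Six2 lie 58.1 kb apart on chromosome 17 of mm10, Six3 from 85620834 to 85626191 on the plus strand and Six2 from 85684268 to 85688254 on the minus strand. Six3os1, a noncoding transcript on the minus strand that starts 2.44 kb before Six3, rose as well. It went from 4.24 ± 3.69 to 108 ± 18.9 in PRC1CKO and from 7.74 ± 3.07 to 35.7 ± 17.6 in PRC1CPM cells (SD, n = 3), with log2 fold changes of 4.84 and 2.03 (adjusted p = 0.00869 in PRC1CPM, limma). Its gene body does not overlap that of Six3, and whether the authors counted reads by strand is not given in the sources used here. Srbd1, the next gene beyond Six2 at 296 kb, was not called in either line (0.49 and 0.36, adjusted p = 0.0951 and 0.333, limma).

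Six6 and Six4 lie 155 kb apart on chromosome 12, Six6 from 72939945 to 72944899 on the plus strand and Six4 from 73100259 to 73113245 on the minus strand. Neither gene was called in either line. Mnat1, 10.5 kb beyond Six4, was not called in either line.

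**Figure D4:**
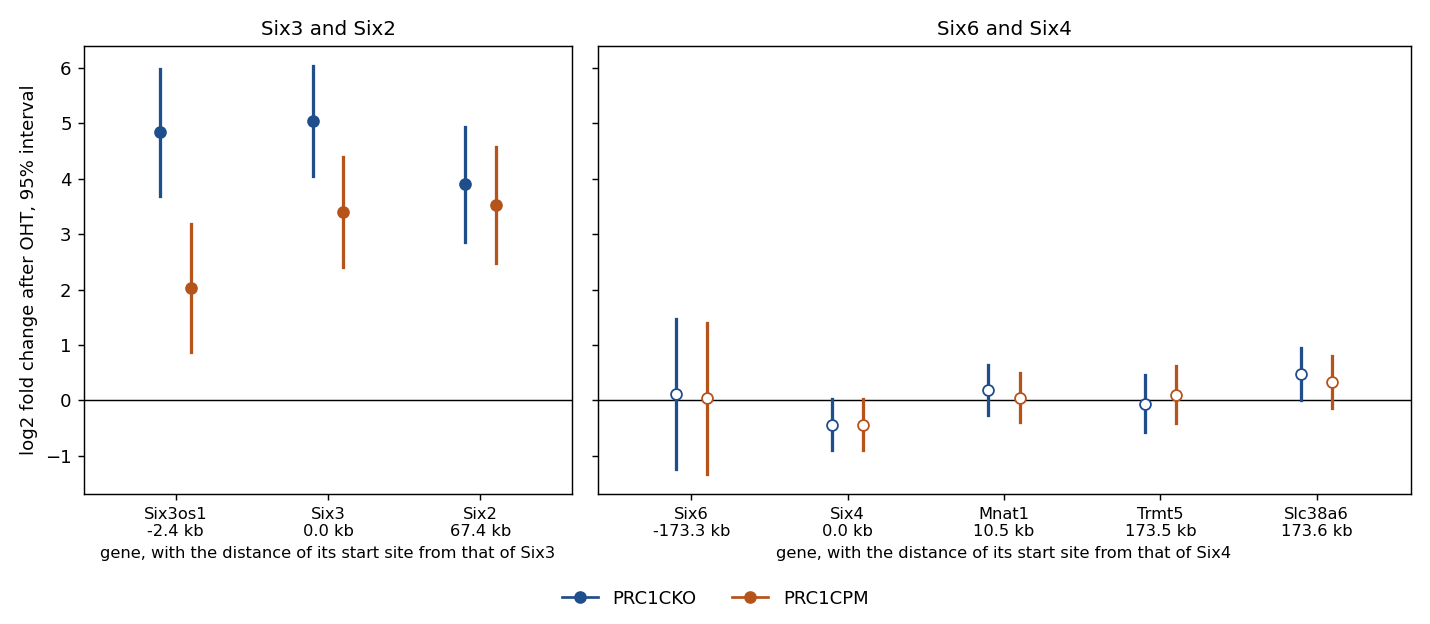
Log2 fold change after OHT (vertical axis) with its 95% interval for genes around Six3 and Six2 and around Six6 and Six4, in order of their start sites, filled where called and open where not. Six3os1, Six3 and Six2 were called in both lines, and Six6, Six4 and the genes drawn beyond Six4 were called in neither line.

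The EYA genes lie apart from each other and from the sine oculis genes. Eya1 lies on chromosome 1 from 14168958 to 14310199 on the minus strand and Eya2 on chromosome 2 from 165595028 to 165771727 on the plus strand. Eya3 lies on chromosome 4 from 132639046 to 132724765 on the plus strand and Eya4 on chromosome 10 from 23104168 to 23349903 on the minus strand. None of their tested neighbours was called in either line, including Zmynd8 12.4 kb beyond Eya2 and Xkr8 0.138 kb from the end of Eya3. Xkr9, Msc, Slc2a10 and Rps12 were the other neighbours tested. Ptafr beside Eya3 and Tcf21 beside Eya4 had too few reads for the test.

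Across the 12 libraries, Six2, Six3, Eya2 and Eya4 followed each other with Pearson correlations of log2(normalised read count + 1) from 0.93 to 0.97. Six4 ran against them, from -0.51 to -0.68. These points share the 4 conditions, so a gene that OHT raises correlates with every other such gene, and the values only describe likeness. The transcripts most like Six2 were Apbb1ip and Gpr63 (r = 0.994 and 0.993), and those most like Six3 were Tmem163 and the homeobox gene Prrx1 (0.993 and 0.990). Prrx1 went from 3.63 to 122 in PRC1CKO and from 7.05 to 66.7 in PRC1CPM cells. Eya2 was most like Galnt18 and Vwa2 (0.989 and 0.988) and Eya4 most like the glutamate receptor gene Grm8 and the ephrin gene Efna5 (0.994 and 0.988). All 8 of these transcripts were called higher in both lines. Six4 was most like Car14, a carbonic anhydrase, and Tefm, a mitochondrial transcription factor (0.971 and 0.961). Car14 fell by 1.09 log2 units in PRC1CKO cells (adjusted p = 0.0262, limma), and Tefm was not called (-0.65, adjusted p = 0.123). Eya1 was most like Irf2bp1 and Cnppd1 and Six6 most like Zdhhc11 and Lonrf2 (0.820 and 0.785), none of which was called after OHT in either line.

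Other genes of the network were read from the family and its cofactors, from PAX partners and from 4 developmental programmes in which sine oculis and EYA factors act. The lists were chosen with earlier results of these data known, so their counts describe the listed genes only. They stand beside 16.5% of all transcripts tested called higher in PRC1CKO and 13.1% in PRC1CPM cells. Dach1, a nuclear cofactor of the network, rose from 139 ± 64.9 to 581 ± 81.9 in PRC1CKO cells (SD, n = 3) and by 1.38 log2 units in PRC1CPM cells (adjusted p = 0.000493, limma). Sobp, the sine oculis binding protein, rose by 2.01 and 0.96 log2 units in PRC1CKO and PRC1CPM cells, while Six5 (-0.34 and 0.010) and Dach2 (0.36 and 0.46) were not called. All 5 PAX genes were higher in PRC1CKO and 3 of 5 in PRC1CPM cells, with medians of 3.24 and 1.28. Pax3, a factor of neural crest and muscle precursors, rose by 5.97 and 4.03 log2 units, Pax7, a muscle stem cell factor, by 3.74 in PRC1CKO with 1.15 in PRC1CPM cells not called, and Pax2, of the kidney and optic stalk, by 3.24 and 1.91.

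The counts of the 4 programmes stand beside 16.5% of all transcripts higher and 3.09% lower in PRC1CKO, and 13.1% and 1.4% in PRC1CPM cells. In the eye field list, where Six3 and Six6 act, 7 of 8 genes were tested. Of these, 4 were higher and 1 lower in PRC1CKO cells and 3 higher and 1 lower in PRC1CPM cells. Lhx2 rose by 3.92 and 3.02 log2 units, Nr2e1 by 3.66 in PRC1CKO cells and Pax6 by 3.06 and 1.28, whereas Otx2 fell by 1.01 and 1.20 (adjusted p = 0.00326 and 0.000591, limma). Of 8 kidney progenitor genes, where Six2 and Eya1 act, 6 were higher and 1 lower in PRC1CKO and 5 and 1 in PRC1CPM cells. Gdnf, the ligand that draws out the ureteric bud and a known target of the network, rose by 3.61 and 3.37 log2 units and Osr1 by 3.49 in PRC1CKO cells. Sall1, a zinc finger factor that ESCs also express, fell from 2837 ± 266 to 880 ± 62.8 in PRC1CKO cells (SD, n = 3) and by 1.11 log2 units in PRC1CPM cells. Of 9 placode and inner ear genes tested, 8 were higher in PRC1CKO and 5 in PRC1CPM cells. The largest changes in PRC1CKO cells were those of Dlx6 (4.73, with 3.53 in PRC1CPM cells), Tbx1 (4.54 and 3.03) and Dlx5 (3.86 and 2.24), while in PRC1CPM cells Atoh1, at 2.82, came before Dlx5. Of 8 skeletal muscle genes only 5 were tested, with 4 higher in PRC1CKO and 3 in PRC1CPM cells. Lbx1, of migrating muscle precursors, rose by 3.70 and 3.21 log2 units. The muscle-determining genes Myf5, Myog and Myf6 had too few reads for the test, and Myod1 was not called, so the 4 higher genes were Pax3, Pax7, Lbx1 and Mef2c, the last a factor of muscle differentiation. Pax2, Pax3, Pax6 and Pax7 stand in more than 1 of these lists. Several of the changes start from the floor. Untreated PRC1CKO libraries held 0 to 3 reads of Dlx6, 0 to 2 of Dlx5, Osr1 and Lbx1, and 0 to 4 of Nr2e1. Untreated PRC1CPM libraries held 0 to 2 reads of Atoh1. The size and order of these changes thus depend on the 1 added to each count. Dlx5 in PRC1CPM cells had 2 to 12 reads after OHT (adjusted p = 0.0492, limma).

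**Figure D5:**
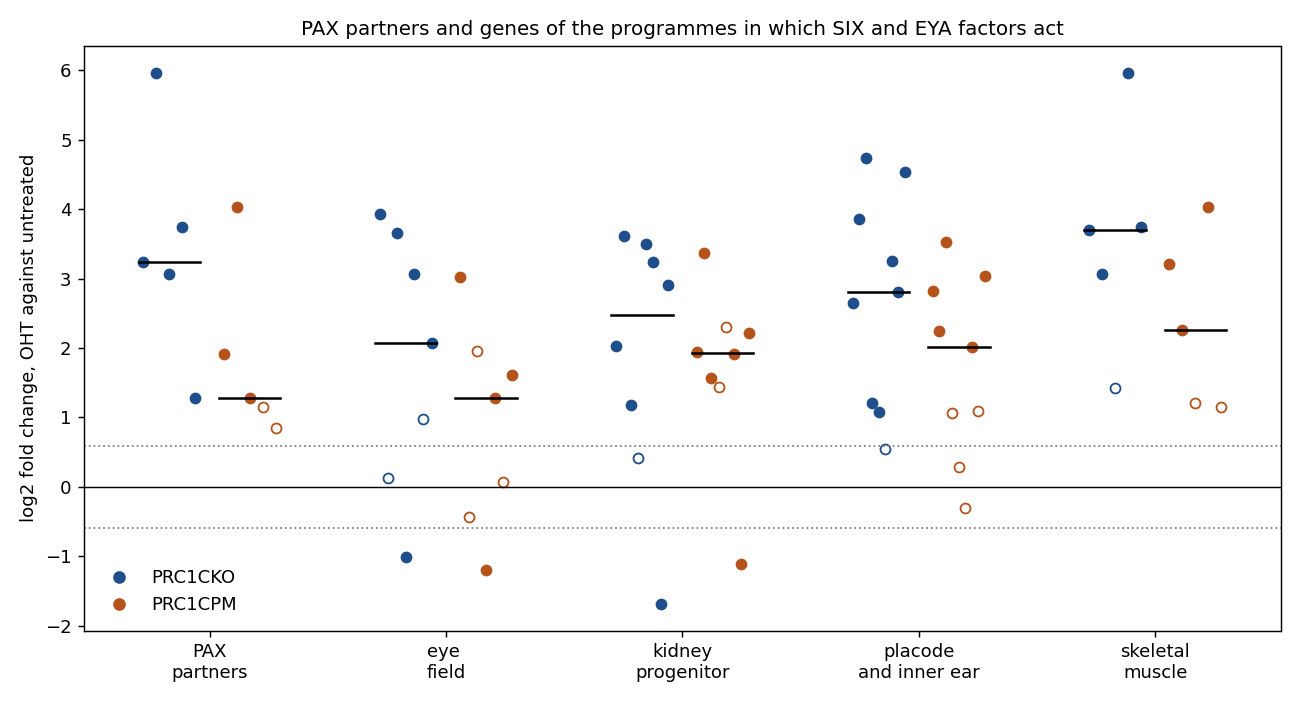
Log2 fold change after OHT (vertical axis) of each tested gene of 5 lists in PRC1CKO and PRC1CPM cells, filled where called and open where not, with a bar at each list's median and dotted lines at a change of 1.5-fold. The medians lie between 2.07 and 3.70 in PRC1CKO and between 1.28 and 2.26 in PRC1CPM cells, and Otx2 and Sall1 are the called points below 0.

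Markers of ESCs and of other cells were measured beside these genes. Among all transcripts tested, 16.5% were called higher and 3.09% lower in PRC1CKO, and 13.1% and 1.4% in PRC1CPM cells. All 8 ESC markers were transcribed in every library, led by Tdgf1, Esrrb or Zfp42, and 1 of the 8, Sox2, fell in PRC1CKO cells, by 0.89 log2 units (adjusted p = 0.00051, limma), and 0 in PRC1CPM cells. Their summed level was 78724 ± 17249 in untreated and 61076 ± 5072 in OHT-treated PRC1CKO cells, and 67642 ± 12135 and 63270 ± 18199 in PRC1CPM cells (SD, n = 3). Of 4 fibroblast markers tested, Thy1 was higher in PRC1CKO cells (0.65) and none in PRC1CPM cells, and Dcn and Lum averaged at most 7.63 and 1.48 normalised reads in any condition. Col1a1, the most abundant of them in each library, set their sum apart in replicate 1 of PRC1CPM, at 14463 untreated and 14740 after OHT, against 3692 to 6192 in the other PRC1CPM libraries. Without either of these libraries the same 4 sine oculis and EYA genes were called in both lines.

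Several markers of early lineages were also higher after OHT, as were 16.5% of all transcripts tested in PRC1CKO and 13.1% in PRC1CPM cells. All 4 endoderm markers (Gata4, Gata6, Sox17 and Foxa2) were higher in both lines, and their sum went from 355 ± 200 to 1880.2 ± 349 in PRC1CKO and from 209 ± 9.44 to 785 ± 185 in PRC1CPM cells (SD, n = 3). Of 3 mesoderm markers tested, T and Eomes were higher in both lines, with sums of 154 ± 96.4 and 415 ± 93.2 in PRC1CKO and 168 ± 80.9 and 423 ± 155 in PRC1CPM cells. Of 4 neurectoderm markers, Zic1 was higher in both lines (5.35 and 4.29) and Nes in PRC1CKO cells, while Sox1 was not called (-0.26 and 0.58). Nes led their sum in each library, which went from 864 ± 436 to 1919.5 ± 189 in PRC1CKO and from 1142 ± 169 to 1716 ± 604 in PRC1CPM cells. Of 3 trophoblast markers tested, Hand1 was higher in both lines, Cdx2 was called in PRC1CPM (1.71) and not in PRC1CKO cells (1.04), with an interaction that was not called (adjusted p = 0.9999, limma), and Tfap2c, which led their sum in each library, fell in PRC1CKO cells by 0.66. That sum went from 1507 ± 197 to 1094 ± 126 in PRC1CKO and from 1006 ± 50.6 to 1417.5 ± 277 in PRC1CPM cells. Between treated lines, Col1a1 was higher (1.44, adjusted p = 0.0203, limma) and Gata6 lower in PRC1CPM cells (-1.78, adjusted p = 0.000388). Between untreated lines, Col1a2 was higher in PRC1CPM cells (1.38, adjusted p = 0.00810, limma), and Tfcp2l1 (-0.88) and Sox1 (-1.40) were lower. The part of these markers in the rise of Six2, Six3, Eya2 and Eya4, or in the differences between the lines, was not tested.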

How the data were processed

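Labels gave the line, treatment and replicate number of the 12 cRNA-seq libraries. The matched gDNA libraries served only the authors' calibration. The authors discarded rDNA reads with Bowtie 2, aligned the rest to concatenated mm10 and dm6 with STAR and Bowtie 2, removed duplicates with Sambamba and counted unique reads over gene bodies of 20633 transcripts. The deposited signal is this count divided by a DESeq2 size factor from the Drosophila reads, corrected by gDNA. Spike-in mixing errors thus shift whole libraries. Deposited columns with the authors' fold changes and adjusted p-values were not used.

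In each library 100% of values were whole reads within 0.02 of a read. The libraries were sequenced as read pairs, and the recovered counts of Six2 were even in every library. Whether both mates of a pair were counted is not given, so low counts may rest on fewer pairs than reads. The filter kept transcripts with 10 or more reads in 3 or more libraries. limma 3.58.1 (R 4.3.3) was fitted to log2(normalised read count + 1), taking each condition as a mean, letting the variance follow the level, and adjusting p-values by Benjamini-Hochberg. The fit was tested on simulated counts with a fixed dispersion. These held no spike-in mixing error and no shared replicate effect, so the test does not cover either. On the recovered reads edgeR 4.0.16 called 2702 higher and 549 lower and DESeq2 1.42.0 called 2757 and 561 in PRC1CKO cells. Other alternatives were TMM or median-of-ratios scaling, no filter, a pseudocount of 0.1, limma treat, a replicate block, each line alone, other rows of a symbol and each library left out.

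Exons and promoters came from RefSeq (GRCm38.p6), whose ends for Six4, Six6 and Eya4 differ from the deposited rows, so that the Six6 window is set on a start 63 bases upstream of the deposited one. The study calls its replicates biological, but the labels name no separate cultures, so p-values measure the spread between these samples, which may be technical. Genes named were the 8 members, the targeted genes, the nearest row either side of each member, the 2 best correlated transcripts of each, and from each list the 3 largest called changes with any in the opposite direction. Other list genes are named as not called or not tested, or to give a whole short list. Members and lists were chosen with earlier results of these data known. The results of some genes that this rule covers are not reported here.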

Additional observations from a re-analysis of the deposited data

How the results depend on the processing

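The 4 calls in PRC1CKO cells held under every alternative run, and those in PRC1CPM cells under all but limma treat, which left 2 (Six2 and Six3). Values below are log2 fold changes in the order given, none of them called unless said. Six6 in PRC1CPM cells turned to -0.068 with edgeR, -0.068 with DESeq2, -0.062 with TMM and -0.068 with median of ratios. Between treated lines, 1 gene (Six3) was called lower by DESeq2 and 2 (Six3 and Eya1) with TMM and with median of ratios. Calls over all 16940 transcripts rose too, from 212 higher and 37 lower in the main fit to 345 and 85 with DESeq2. They were 524 and 261 with TMM and 517 and 257 with median of ratios. Eya2 turned to -0.096 with both scalings. Between untreated lines, Eya1 turned to -0.021 with edgeR, -0.020 with DESeq2, -0.10 with TMM and -0.11 with median of ratios. The interaction of Six4 turned to 0.019, 0.018, 0.0092 and 0.0093 in the same 4 settings. The cause of these shifts was not tested.

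The replicate number was also fitted as a block. Libraries with the same number deviated from their condition means together (mean correlation 0.205 over 18 pairs, lowest 0.0988). The mean of -0.102 over 36 pairs with different numbers largely follows from this, because the deviations within a condition sum to 0. In 36 of 36 comparisons a library correlated best with its own number. The labels do not say what a number stands for, so the main fit left the samples unpaired, although 17 of 18 same-numbered pairs correlated above 0.1. The calls in the interaction and between the lines depend on this choice. With the block the same 4 genes were called in both lines, Eya4 was called in the interaction (1 lower, -0.91, adjusted p = 0.0287), Six3 and Eya1 were called between treated lines (2 lower, -1.31 and -0.59), and Eya4 between untreated lines (1 higher, 0.59). The block raised all calls in PRC1CKO cells from 2787 higher and 524 lower to 3435 and 823, and those in either direction from 4 to 324 in the interaction, from 249 to 1363 between treated lines and from 455 to 1884 between untreated lines.

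With each library left out in turn, results that crossed 0 ranged as follows. After OHT, Six6 ranged from -0.33 to 0.42 in PRC1CKO and from -0.49 to 0.28 in PRC1CPM cells. In the interaction, the ranges were -1.02 to 0.11 for Six2, -0.19 to 0.10 for Six4, -0.60 to 0.37 for Six6, -0.33 to 0.0085 for Eya2 and -0.11 to 0.20 for Eya3. Between treated lines they were -0.21 to 0.13 for Six2, -0.10 to 0.34 for Six6, -0.20 to 0.14 for Eya2 and -0.26 to 0.044 for Eya3. Between untreated lines they were -0.16 to 0.97 for Six2, -0.12 to 0.68 for Six3, -0.27 to 0.70 for Six6 and -0.19 to 0.27 for Eya1. Without untreated PRC1CKO replicate 1, Eya1 in PRC1CKO cells was 0.72 against 0.46. Depth limits Six2, Six3 and Six6, with 2 to 8, 2 to 6 and 2 to 12 reads in untreated libraries. Six6 had too few reads for the filter in each line alone and in some fits with a library left out.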
